A study of Mus musculus with 26 samples.

Results

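A set of 10 germline genes was followed through all 26 RNA-seq libraries of the series: Tex13b, Tex101, Dazl, Mael, Sycp1, Sycp3, Tdrd1, Stk31, Slc25a31 and Asz1. They make up 10 of the 55291 genes in each of the 2 count tables. They were listed by name as germline genes silenced by methylation, and Tex13b was chosen on its rise in the Grb10 pA line, the largest among the listed genes. The comparison of Grb10 pA with its WT control is therefore given below as a description without a test. DNA methylation was not measured in the data used here, so that the word silenced was checked only against RNA. Reads were counted on these genes in 256 of their 260 values, and 50 of the 260 values were counts under 10.

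Genes needed only in germ cells are kept off in most other tissues by marks at their promoters. In the mouse embryo many of these promoters are CpG-rich and gain DNA methylation around implantation. A non-canonical Polycomb complex, PRC1.6, is brought to a large share of them by the DNA-binding partners E2F6 and MGA-MAX, which bind E2F-type motifs and E-boxes, and the histone methyltransferase SETDB1 acts at others. ESCs grown with inhibitors of MEK and GSK3 are known for low genome-wide methylation and for transcripts of some germline genes. Dazl encodes an RNA-binding protein of germ cells. Mael, Tdrd1 and Asz1 belong to the piRNA pathway, which silences transposons in germ cells, and Stk31 encodes a Tudor-domain protein of the testis. Sycp1 and Sycp3 encode parts of the synaptonemal complex, which joins homologous chromosomes in meiosis. Slc25a31 encodes an ADP/ATP carrier of germ cell mitochondria, Tex101 a surface glycoprotein of germ cells, and Tex13b is an X-linked gene of the testis.

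The 10 groups come from 2 experiments on mouse E14 ESCs, which were cultured in N2B27 medium with serum, LIF and the inhibitors CHIR99021 and PD0325901. In the first, the rescue lines, endogenous CTCF carries a homozygous mAID-eGFP degron, OsTIR1(F74G) stands heterozygous at Rosa26, an mCherry reporter is knocked in at Hb9, and a doxycycline-inducible Flag-Halo CTCF, either WT or lacking the first zinc finger (ΔZF1), is integrated at Tigre. All 4 rescue groups, controls included, were treated with 1 µM 5-Ph-IAA, which degrades the endogenous CTCF, and with 1 µg/ml doxycycline for 24 h. There were 2 libraries each of ESC-WT and ESC-ΔZF1 and 2 each of the NPCs made from them, NPC-WT and NPC-ΔZF1. In the second, the parental E14 line (WT) and the Podxl pA and Grb10 pA lines, in which a cassette of eGFP and the SV40 polyadenylation signal inserted homozygously after the first coding exon cuts the Podxl or Grb10 RNA short, had 3 libraries each as ESCs and as NPCs, and their labels name no treatment. NPCs were collected after 2 days in N2B27 on laminin. Each protein or insertion was studied in 1 line, so that line and genotype cannot be told apart, and p-values measure only the spread between libraries, which the labels do not tie to separate cultures.

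The rescue libraries held between 6425179 and 28730435 counts on genes and the truncation libraries between 1907505 and 8845087. The counts of the 2 tables were fitted and normalized separately, and levels are set side by side across them without a test. Podxl lay between 232 and 259 CPM (reads per 1000000 counts on the genes tested, after TMM scaling) in NPC WT and between 20.8 and 24.3 in NPC Podxl pA, and Grb10 between 769 and 814 in NPC WT and between 52.2 and 59.4 in NPC Grb10 pA. CTCF itself is removed as a protein, which RNA counts do not show. All 8 ESC markers of a fixed list fell from ESCs to NPCs in each of the 5 lines, and their summed level went from at least 4149 CPM in every ESC group to at most 887 CPM in every NPC group. Of the NPC markers tested, 4 of 6 were called higher in NPC-WT than in ESC-WT, and 4 of 5 in NPC WT than in ESC WT. Sox1 reached 79.3 ± 4.87 CPM (SD, n = 3) in NPC WT, while Pax6 reached 7.90 ± 1.16 (SD, n = 3) and Hes5 had at most 1 read in each NPC WT library. Nes stood at 22.0 ± 3.11 CPM in NPC WT and 23.9 ± 2.61 in ESC WT (SD, n = 3). In NPC-WT Sox1 reached 19.4 ± 3.69 CPM against 6.13 ± 0.835 in ESC-WT (SD, n = 2). Pax6 stood at 1.79 ± 0.706 in NPC-WT and 2.25 ± 1.24 in ESC-WT (SD, n = 2). The 8 primitive endoderm markers also rose in each of the 5 lines, with sums of 604 to 703 CPM in NPC WT, 545 to 752 in NPC-WT and 3127 to 3167 in NPC-ΔZF1. In bulk RNA, fewer cells of a type and less RNA per cell cannot be told apart.

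All 10 genes were found in GENCODE M21 on GRCm38, the assembly also called mm10. Tex13b lies on chromosome X from 140808307 to 140813433, Dazl on chromosome 17 from 50279395 to 50293636, Tdrd1 on chromosome 19 from 56826209 to 56870012 and Mael on chromosome 1 from 166201201 to 166238747. Sycp3, on chromosome 10 from 88459569 to 88473236, shares 660 of its 1264 exon bases (52.2%) with Chpt1, an enzyme gene of choline phospholipid synthesis on the other strand. The counting did not use strand, so that reads of Sycp3 and Chpt1 in the shared part cannot be told apart, and the values of Chpt1 are given beside those of Sycp3. No other member shares exon bases with another gene. RefSeq start windows of 300 bases, from 250 before to 50 after the start, were at hand for all 10 members. The 4 windows printed here are those of the gene chosen on Grb10 pA, of the gene with the largest fall in NPCs, of the gene that rose in NPCs of every line, and of the gene whose window holds the most motif matches. Each is written 5′ to 3′ along the gene from RefSeq on GRCm38.p6, with every CpG in capitals. The window of Tex13b is chrX:140813384-140813683 (minus strand), that of Dazl chr17:50293571-50293870 (minus strand), that of Tdrd1 chr19:56825959-56826258 (plus strand) and that of Mael chr1:166238695-166238994 (minus strand).
Tex13b: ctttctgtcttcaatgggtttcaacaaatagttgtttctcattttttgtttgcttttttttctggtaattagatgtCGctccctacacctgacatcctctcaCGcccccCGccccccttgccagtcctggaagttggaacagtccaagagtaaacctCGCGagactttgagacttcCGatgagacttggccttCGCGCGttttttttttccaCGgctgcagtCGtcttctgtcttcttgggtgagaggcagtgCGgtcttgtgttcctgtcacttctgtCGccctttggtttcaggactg
Dazl: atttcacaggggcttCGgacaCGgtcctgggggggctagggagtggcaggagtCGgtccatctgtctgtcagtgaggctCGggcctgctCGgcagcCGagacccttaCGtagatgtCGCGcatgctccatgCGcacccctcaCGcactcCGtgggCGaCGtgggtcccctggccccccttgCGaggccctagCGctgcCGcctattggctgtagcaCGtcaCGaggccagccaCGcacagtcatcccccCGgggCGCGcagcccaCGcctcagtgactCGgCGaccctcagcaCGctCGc
Tdrd1: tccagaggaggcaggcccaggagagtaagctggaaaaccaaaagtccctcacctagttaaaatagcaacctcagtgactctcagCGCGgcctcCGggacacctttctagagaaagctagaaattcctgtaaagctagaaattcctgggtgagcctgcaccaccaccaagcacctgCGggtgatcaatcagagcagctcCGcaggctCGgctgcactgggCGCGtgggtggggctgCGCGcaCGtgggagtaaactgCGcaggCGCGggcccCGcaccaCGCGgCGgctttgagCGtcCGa
Mael: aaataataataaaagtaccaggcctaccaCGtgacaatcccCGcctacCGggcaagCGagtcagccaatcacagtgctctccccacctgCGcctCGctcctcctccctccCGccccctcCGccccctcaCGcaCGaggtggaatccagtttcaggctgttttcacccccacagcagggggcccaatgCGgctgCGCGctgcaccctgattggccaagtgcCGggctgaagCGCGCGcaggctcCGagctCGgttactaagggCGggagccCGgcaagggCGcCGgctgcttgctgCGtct

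CpGs were counted in all 32851 RefSeq windows of this length. Their median was 7.0 CpGs, with quartiles of 3 and 20, and the 10 germline genes had between 13 and 28. Dazl and Stk31 had 28 each and Tex13b had 13, the fewest of the members. The ratio of observed to expected CpGs lay between 0.666 in Sycp3 and 0.874 in Sycp1, against a median of 0.384 over all windows. The E-box CACGTG, which reads the same on both strands, occurred in 6 of the 10 windows, against 7.15% of all windows. It lay 11 bases before the start of Tdrd1, 64 and 43 bases before that of Sycp3, 94 before Sycp1, 93 before Slc25a31, 120 before Stk31 and 223 before Mael. The E2F-type motif GGCGGGA was searched on both strands and occurred in Mael at 143 bases before and 11 bases into the gene, and in Slc25a31 at 21 bases into the gene. It was present in 11.3% of all windows. Neither motif occurred in the windows of Tex13b, Dazl, Tex101 or Asz1, and the RefSeq start of Tex101 lies 4625 bases from the end that GENCODE gives to the gene. Both motifs hold a CpG themselves, and the windows of the members hold more CpGs than the median window. The shares over all windows are thus not those of windows with like CpG counts, which were not taken. A match is a run of letters and not a measured binding site.

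**Figure D1:**
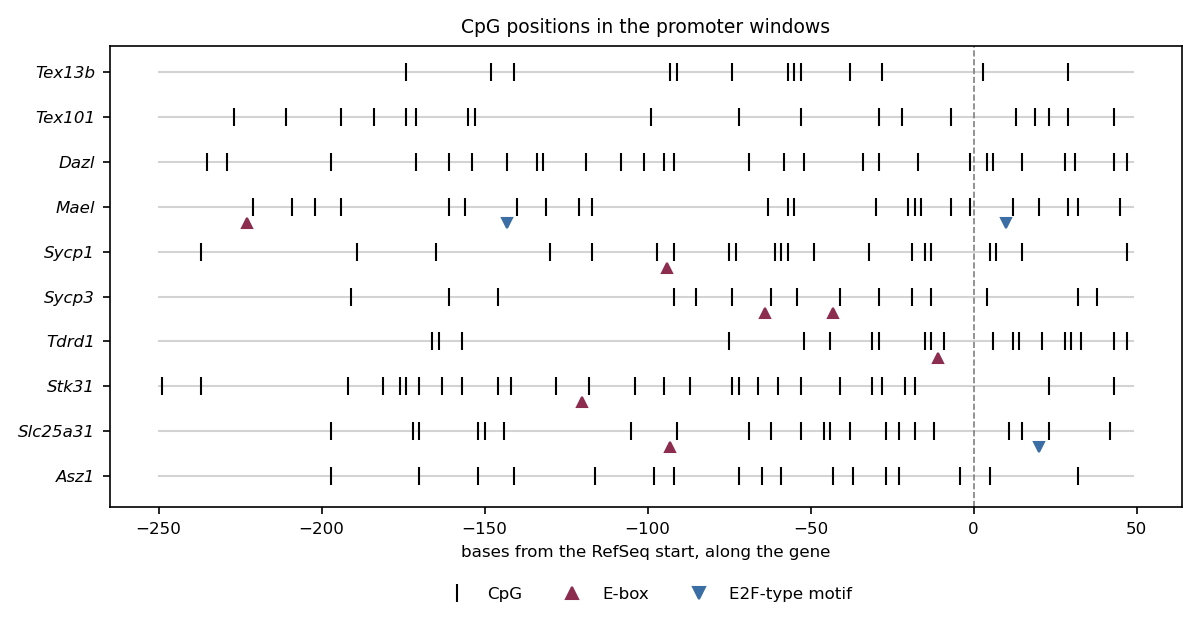
Positions of CpGs (black ticks), of the E-box (dark red triangles) and of the E2F-type motif (blue triangles) in the start windows of the 10 germline genes, in bases from the RefSeq start. CpGs number 13 to 28 a window, the E-box occurs in 6 windows and the E2F-type motif in 2.

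Per kilobase of exon, the 10 genes did not stand at the same level in ESCs. In ESC-WT, Mael (12.1 ± 0.0366 CPM per kilobase; SD, n = 2), Stk31 (10.4 ± 1.12) and Dazl (9.22 ± 0.145) were the highest, and Tdrd1 (0.789 ± 0.00328) and Asz1 (0.427 ± 0.146) the lowest. In ESC WT of the other experiment, Dazl stood at 9.77 ± 1.32 CPM per kilobase (SD, n = 3), Sycp3 at 6.12 ± 1.92, Tdrd1 at 0.362 ± 0.0445 and Tex101 at 0.216 ± 0.207. Counts under 10 were concentrated in a few genes. Asz1 had 6 and 23 reads in ESC-WT, 5 and 10 in ESC-ΔZF1, 7 and 1 in NPC-WT and 2 and 8 in NPC-ΔZF1. Tex101 had 7 to 50 reads in the rescue lines and 0 to 5 in every library of the truncation lines, where it did not pass the filter on low counts and was not tested. Tdrd1 had 0 to 13 reads in the 9 ESC libraries of the truncation lines. In the rescue lines all 10 members were tested, with 8 of 80 values under 10, and in the truncation lines 9 were tested, with 42 of 180 values under 10 and 4 at 0. Asz1 passed the filter of the rescue lines only through its ESC libraries, and Tdrd1 that of the truncation lines only through its NPC libraries. Tex101 passed that of the rescue lines with 5 libraries over the cutoff, in ESC-WT, ESC-ΔZF1 and NPC-WT but not NPC-ΔZF1, and so mainly through ESCs. The changes of these genes between ESCs and NPCs were thus favoured by the filter. Asz1 passed that of the truncation lines with 7 libraries, in ESC WT, ESC Grb10 pA and NPC Grb10 pA. Its rise in Grb10 pA was thus favoured too.

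**Figure D2:**
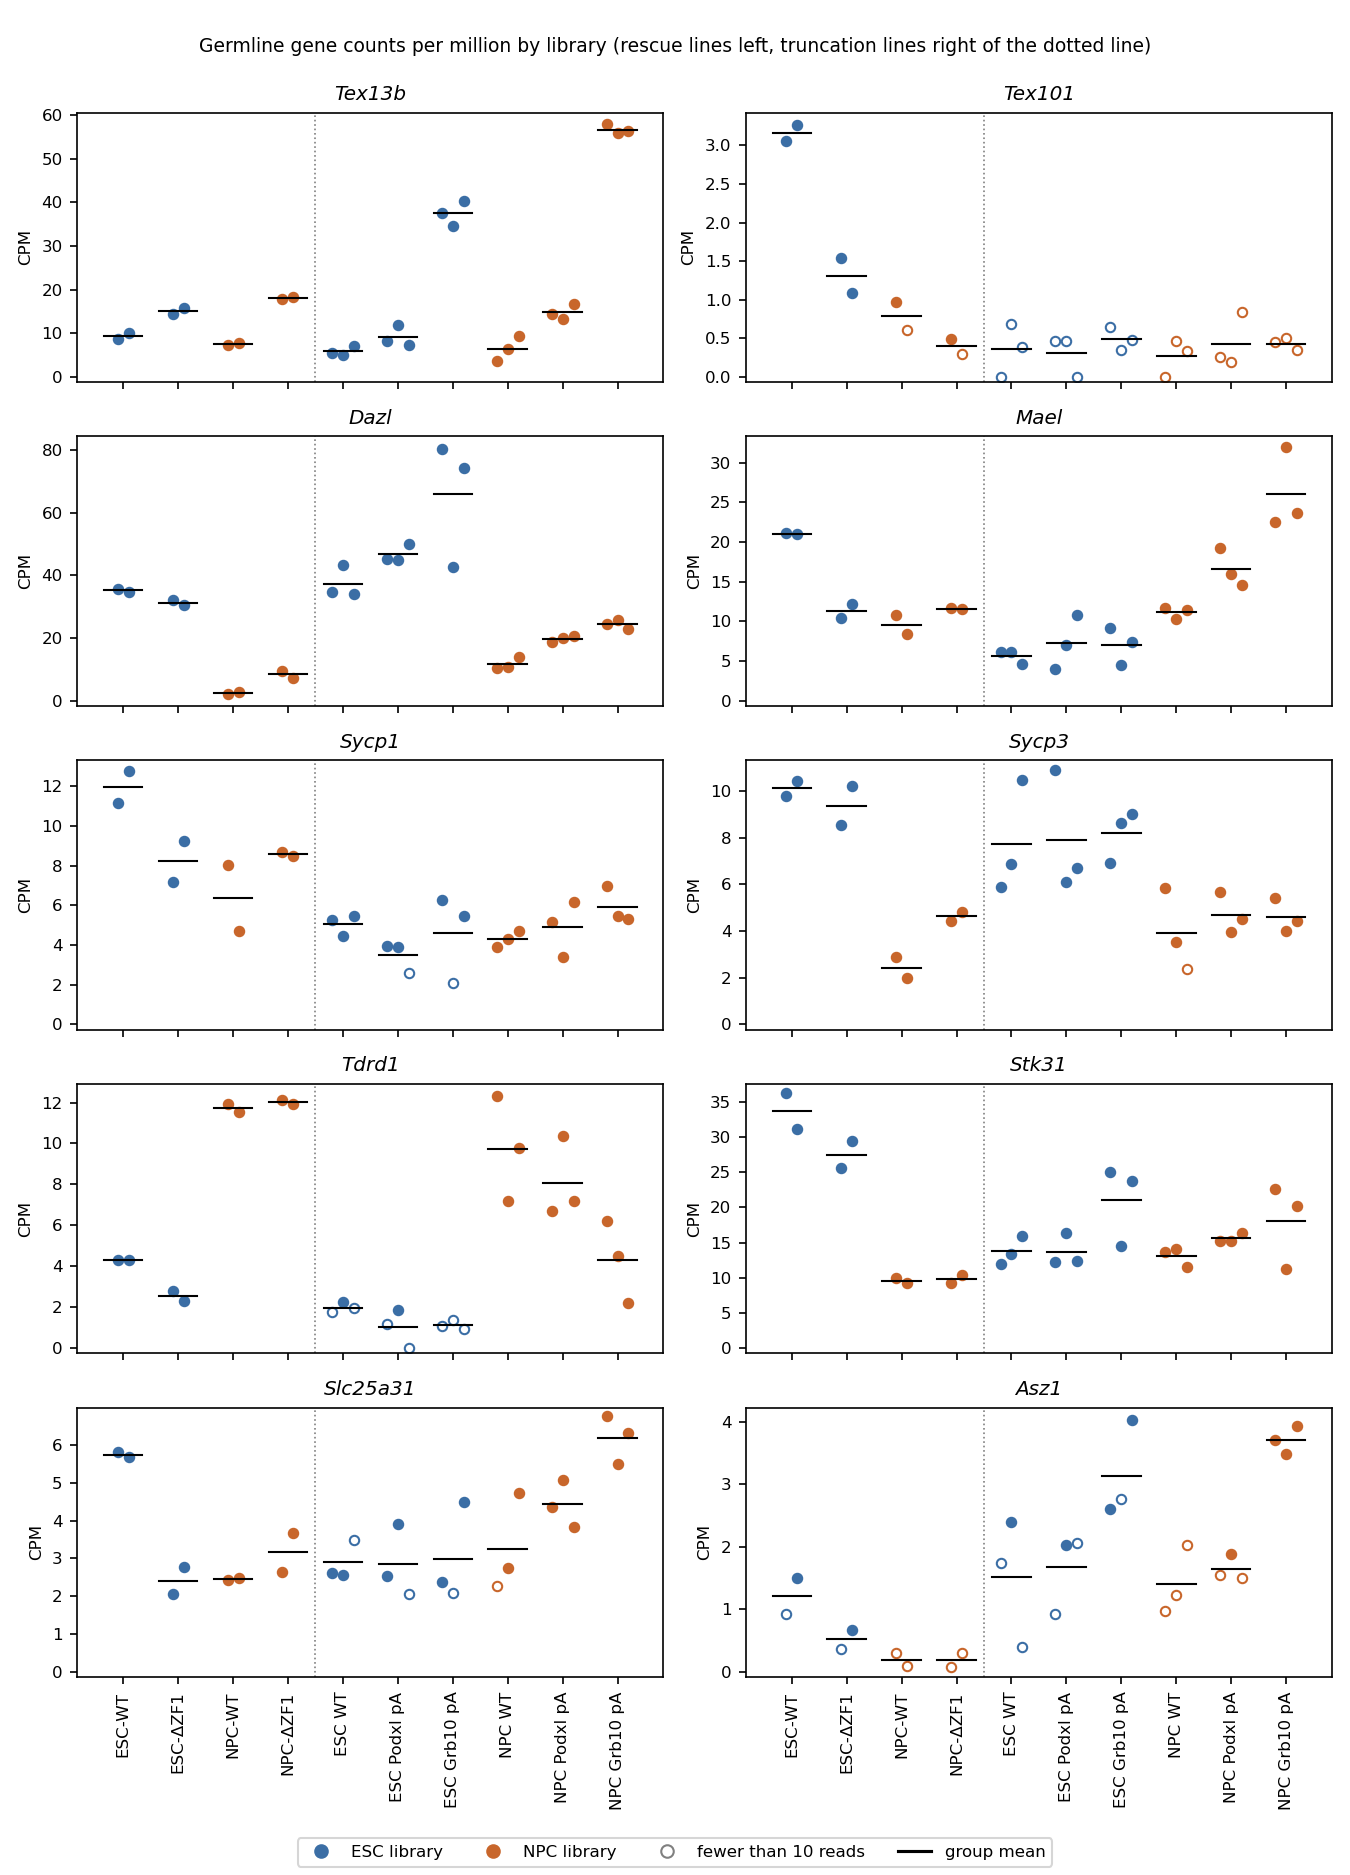
Level of each germline gene in CPM (linear axes) in each of the 26 libraries, in ESCs (blue) and NPCs (orange), with open circles for fewer than 10 reads and a bar for the group mean. Dazl is lower in NPCs than in ESCs in every line, Tdrd1 is higher, and Tex13b stands highest in the Grb10 pA libraries.

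The first question was how the germline genes moved as ESCs became NPCs. Dazl fell in all 5 lines and Tdrd1 rose in all 5, while Mael fell in the WT CTCF rescue line and rose in the 3 lines of the truncation experiment. A gene was called where its adjusted p-value was no more than 0.05 and its log2 fold change was 0.5 or more in size, the cutoffs of the study. In NPC-WT relative to ESC-WT, 8 of the 10 members were lower and 1 was higher. The 8 include Asz1 and Tex101, whose falls the filter favoured. Of all 16641 genes tested in the rescue lines, 19.9% were lower and 22% higher. The median log2 fold change was -1.51 over the members and 0.01 over all genes. In NPC-ΔZF1 relative to ESC-ΔZF1, 4 members were lower and 1 higher, against 16.9% and 20.4% of all genes. The lower ones again include Tex101, whose fall the filter favoured. In E14 WT, 2 of the 9 members tested were lower in NPCs and 2 higher, against 16.3% and 16.5% of the 13268 genes tested. In Podxl pA, 2 were lower and 3 higher, against 14.7% and 17.1%, and in Grb10 pA 2 were lower and 4 higher, against 17.4% and 17.2%. The 4 include Tex13b, which was chosen on the Grb10 pA libraries and supports nothing there. In each of these 3 lines the higher members include Tdrd1, whose rise the filter favoured. With 9 members tested in these 3 lines, 1 gene more or less moves such a share strongly, and the 2 genes called lower were Dazl and Sycp3 each time.

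**Figure D3:**
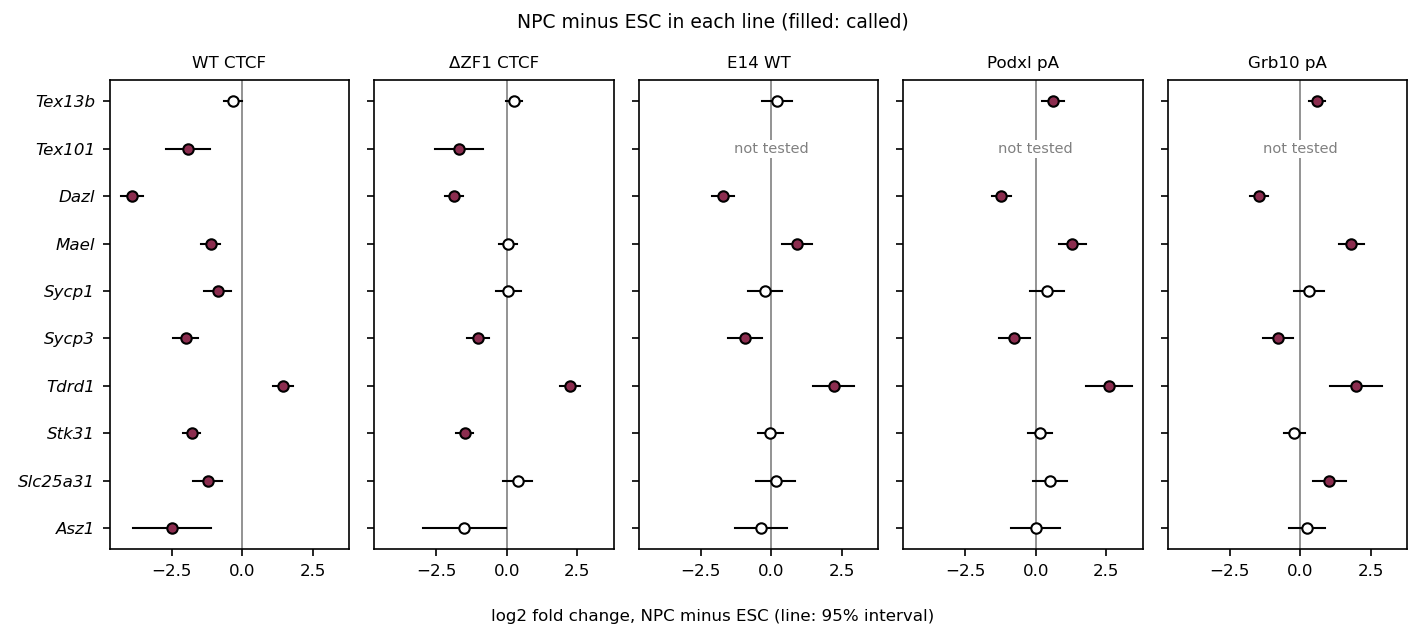
Log2 fold change of each germline gene in NPCs minus ESCs (x axis) in the 5 lines, with approximate 95% intervals and filled points for calls. Dazl lies below 0 and Tdrd1 above 0 in each panel, and Mael lies at -1.12 in the WT CTCF line and at 0.91, 1.30 and 1.81 in E14 WT, Podxl pA and Grb10 pA. The point of Tex13b in Grb10 pA is a description, since the gene was chosen on those libraries.

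Dazl had 233 and 534 reads in ESC-WT and 49 and 31 in NPC-WT. The 2 NPC libraries lay far below both ESC libraries, at 2.37 ± 0.416 against 35.2 ± 0.553 CPM (SD, n = 2), and the log2 fold change was -3.93 with a standard error of 0.20 (adjusted p = 7.04e-07, quasi-likelihood test of edgeR). In the ΔZF1 line it had 436 and 452 reads in ESCs and 272 and 199 in NPCs, a fall of smaller size, at -1.89 on the log2 scale (standard error 0.16, adjusted p = 1.12e-05). In E14 WT the 3 ESC libraries held 159, 252 and 88 reads and the 3 NPC libraries 32, 71 and 41. Scaled by library size the groups did not overlap, as in 55.3% of all genes tested, and the log2 fold change was -1.71 (standard error 0.19, adjusted p = 3.59e-08). It was -1.22 in Podxl pA and -1.47 in Grb10 pA. Dazl was thus the member with the largest fall in each of the 5 lines, and it remained detected in every NPC library.

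Among the piRNA pathway genes, Tdrd1 went the other way. Tdrd1, a Tudor protein that binds PIWI proteins, had 28 and 66 reads in ESC-WT and 281 and 134 in NPC-WT, a rise from 4.29 ± 0.0179 to 11.7 ± 0.277 CPM (SD, n = 2). Its log2 fold change was 1.45 (standard error 0.18, adjusted p = 0.000131) in the WT CTCF line, 2.24 in the ΔZF1 line, 2.21 in E14 WT, 2.60 in Podxl pA and 1.99 in Grb10 pA. In E14 WT it had 8, 13 and 5 reads in ESCs and 38, 47 and 29 in NPCs. No NPC library overlapped the ESC libraries, as in 55.3% of all genes tested. Its rises in E14 WT, Podxl pA and Grb10 pA were favoured by the filter, which Tdrd1 passed there only through NPC libraries. Mael, which acts in the nuage and nucleus of male germ cells, had 138 and 322 reads in ESC-WT and 255 and 97 in NPC-WT. This was a fall in CPM, from 21.0 ± 0.0635 to 9.57 ± 1.75 (SD, n = 2), by -1.12 on the log2 scale (standard error 0.17, adjusted p = 0.000458). In E14 WT it had 28, 36 and 12 reads in ESCs and 36, 67 and 34 in NPCs, and rose by 0.91 on the log2 scale (standard error 0.27, adjusted p = 0.00611). Mael rose in Podxl pA (1.30) and Grb10 pA (1.81) as well. In ESCs it stood at 21.0 CPM in the WT CTCF line and at 5.64 ± 0.852 (SD, n = 3) in E14 WT, whereas in NPCs it stood at 9.57 and 11.1 ± 0.767, levels of separately normalized tables whose difference was not tested. Stk31 fell in the WT and ΔZF1 CTCF lines (log2 fold changes of -1.80 and -1.49). In the truncation experiment it was not called, with -0.03 in E14 WT (95% interval -0.48 to 0.42). Asz1, a mitochondrial scaffold of the pathway, had a log2 fold change of -2.49 in the WT CTCF line (adjusted p = 0.0153, standard error 0.71), which rests on 6 and 23 reads in ESCs and 7 and 1 in NPCs and was not called without replicate 2 of ESC-WT (-2.03, adjusted p = 0.199). In the other 4 lines Asz1 was not called.

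The genes of the synaptonemal complex differed from each other. Sycp1, the transverse filament protein, had 73 and 196 reads in ESC-WT and 189 and 55 in NPC-WT, and was lower, at -0.88 on the log2 scale (standard error 0.24, adjusted p = 0.0138). Without replicate 2 of ESC-WT its value was -0.77 and it was not called (adjusted p = 0.118). In the other 4 lines Sycp1 had values between -0.21 and 0.42 and was not called. Sycp3, a part of the lateral element, was called lower in all 5 lines, with log2 fold changes of -2.01 in the WT CTCF line, -1.02 in the ΔZF1 line, -0.94 in E14 WT, -0.77 in Podxl pA and -0.77 in Grb10 pA. Chpt1, with which it shares exon bases, had -0.76, -0.59, -0.37, -0.50 and -0.34 in the same order, and was called lower in the WT CTCF line (adjusted p = 0.0356). The part of Chpt1 in the values of Sycp3 was not tested. In E14 WT the Sycp3 libraries held 27, 40 and 27 reads in ESCs and 18, 23 and 7 in NPCs, with the lowest ESC library (5.89 CPM) just above the highest NPC library (5.83 CPM). Its call was lost with DESeq2 in Podxl pA (adjusted p = 0.0887) and Grb10 pA (0.0609), and in all 3 lines of the truncation experiment when single libraries were left out. Adjusted p was 0.0689 without replicate 3 of ESC WT, 0.0854 and 0.0675 without replicates 2 and 3 of NPC WT, and in Podxl pA 0.283 (log2 fold change -0.44) without replicate 1 of the ESCs, 0.112 and 0.0767 without replicates 2 and 3 of the NPCs. In Grb10 pA it was 0.0811 without replicate 3 of the ESCs and 0.0542 and 0.0571 without replicates 2 and 3 of the NPCs.

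The remaining 3 genes had no common course. Slc25a31 had 38 and 87 reads in ESC-WT and 57 and 29 in NPC-WT and fell (log2 fold change -1.23, standard error 0.26, adjusted p = 0.00369). In Grb10 pA it had 11, 6 and 19 reads in ESCs and 60, 22 and 37 in NPCs and rose (1.03, standard error 0.30, adjusted p = 0.00499), and in the other 3 lines it was not called. Tex101 fell in the WT CTCF line, with 20 and 50 reads in ESCs and 23 and 7 in NPCs (log2 fold change -1.93, adjusted p = 0.00261). It also fell in the ΔZF1 line, with 21 and 16 reads in ESCs and 14 and 8 in NPCs (-1.71, adjusted p = 0.0098), though not without replicate 1 of ESC-ΔZF1 (-1.45, adjusted p = 0.0877) or replicate 2 of NPC-ΔZF1 (-1.38, adjusted p = 0.0811). Tex13b was not called between ESCs and NPCs in the WT CTCF line (-0.33, 95% interval -0.65 to -0.01), the ΔZF1 line (0.26, -0.02 to 0.54) or E14 WT (0.20, -0.31 to 0.72). In the WT CTCF line its unadjusted p-value was 0.0724 (quasi-likelihood test), as the approximate intervals are narrower than the test implies. It rose in Podxl pA (0.61, standard error 0.20, adjusted p = 0.0136). In Grb10 pA, on whose libraries it was chosen, its value of 0.59 is a description. The call in Podxl pA was lost without replicate 1 of its ESCs (0.49, adjusted p = 0.0853) and without replicate 3 of its NPCs (0.51, adjusted p = 0.0794).

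Lists of other germline genes were counted beside these members. Their counts stand against the 19.9% of all genes lower and 22% higher in NPC-WT, and the 16.3% and 16.5% in E14 WT. Of 22 further genes of germline RNA and the piRNA pathway that were tested, 13 were lower and 3 higher in NPC-WT than in ESC-WT, with a median log2 fold change of -1.12, and in E14 WT 6 of 19 were lower and 4 higher, with a median of -0.14. Tdrd12 and Fkbp6, which act in piRNA production, fell in both (-3.33 and -3.13 in the WT CTCF line, -0.98 and -1.22 in E14 WT), as did Tex19.1 (-1.45 and -0.70) and Rnf17 (-1.42 and -0.63). Of 22 meiosis genes tested in the WT CTCF line 11 were lower and 2 higher, and of 16 in E14 WT 4 were lower and 4 higher. Hormad1, a protein of the meiotic chromosome axis, fell in both (-3.95 and -0.69), as did Stag3 (-1.28 and -1.42) and Tex14 (-1.99 and -0.90), whereas the meiotic cohesin gene Rec8 rose (0.88 and 0.85). Of the other germline genes listed, Sohlh2, Aurkc and Tuba3a fell in both lines and Rhox6, an X-linked homeobox gene, rose (2.90 and 1.34). Among 22 repressors of germline genes, 5 were lower and 1 higher in NPC-WT, and 1 lower and 2 higher in E14 WT, so that the share of repressors lower in NPC-WT was near that of all genes. E2f6 rose in both, with log2 fold changes of 0.83 (standard error 0.13, adjusted p = 0.000447) and 0.90 (standard error 0.11, adjusted p = 1.59e-07). Of 10 genes of DNA methylation, 4 were lower and 3 higher in NPC-WT, and 2 lower and 3 higher in E14 WT. The de novo methyltransferase Dnmt3b and its partner Dnmt3l rose in both, with 0.83 and 1.44 in the WT CTCF line and 2.76 and 4.19 in E14 WT. The demethylases Tet1 and Tet2 fell in both, with -2.87 and -2.76 in the WT CTCF line and -1.17 and -0.97 in E14 WT. The other called genes of this list had no common direction. The methyltransferase Dnmt3a fell in the WT CTCF line (-0.51) and rose in E14 WT (1.75), the chromatin remodeller Hells fell in the WT CTCF line (-1.14) and was not called in E14 WT (0.17), and the demethylase Tet3 rose in the WT CTCF line (1.32) and was not called in E14 WT, where its change was below the fold threshold (0.46). The genes of this list were named after their values were seen. These lists were chosen with results of these data known.

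The second question was whether ΔZF1 CTCF changed these genes. In ESC-ΔZF1 relative to ESC-WT, Mael and Slc25a31 were lower and Tex13b was higher, so that 2 of 10 members were called lower and 1 higher against 2.33% and 1.29% of all genes. Mael had 138 and 322 reads in ESC-WT and 142 and 181 in ESC-ΔZF1, which is 21.0 ± 0.0635 against 11.3 ± 1.27 CPM (SD, n = 2), or -0.89 on the log2 scale (standard error 0.17, adjusted p = 0.0241). Slc25a31 had 38 and 87 against 28 and 41 reads, with -1.24 (standard error 0.27, adjusted p = 0.0362). Tex13b had 57 and 154 against 195 and 235 reads, with 0.67 (standard error 0.16, adjusted p = 0.046). The libraries of the 2 groups did not overlap in CPM for any of these 3 genes, which with 2 against 2 libraries was also so for 57.4% of all genes tested. All 3 calls were lost when any 1 of the 4 libraries was left out, with adjusted p between 0.172 and 0.294 and the same directions. Tex13b was also not called with DESeq2 (adjusted p = 0.0564). The other 7 members were not called, and their log2 fold changes were all negative, from -1.28 in Tex101 (95% interval -2.02 to -0.54) to -0.12 in Sycp3 (-0.51 to 0.28). The median over the 10 members was -0.65, against -0.01 over all genes. It includes Asz1 (-1.27), which passed the filter with 3 libraries, in ESC-WT and ESC-ΔZF1 only. With 6 and 23 reads in ESC-WT against 5 and 10 in ESC-ΔZF1, its lower value here was favoured by the filter as well. Of the 22 further piRNA pathway genes 6 were called, all lower, with a median of -0.64, and of the 22 meiosis genes 3 were called, all lower.

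In NPCs the same comparison gave 3 members higher in NPC-ΔZF1 than in NPC-WT and 0 lower, against 7.19% and 10.5% of all genes. For the lower direction, 1 member, Tex101, had an unadjusted p-value under 0.05, and DESeq2 called 0. Dazl had 49 and 31 reads in NPC-WT and 272 and 199 in NPC-ΔZF1, which is 2.37 ± 0.416 against 8.45 ± 1.603 CPM (SD, n = 2), or 1.87 on the log2 scale (standard error 0.20, adjusted p = 0.000386). Both mutant libraries lay above both WT libraries (60.9% of all genes tested did not overlap between these groups), yet below every ESC library of the rescue lines. Tex13b had 173 and 91 against 507 and 500 reads, which is 7.58 ± 0.346 against 18.1 ± 0.369 CPM (SD, n = 2), with 1.26 (standard error 0.15, adjusted p = 0.000657). Sycp3 had 68 and 23 against 126 and 131 reads, with 0.88 (standard error 0.22, adjusted p = 0.0215). It was not called with only these 4 libraries in the fit (adjusted p = 0.0993), nor without replicate 1 (0.0955) or replicate 2 (0.14) of NPC-ΔZF1. Chpt1 had 0.29 here and was not called (adjusted p = 0.423). Tdrd1 stood at 11.7 ± 0.277 CPM in NPC-WT and 12.0 ± 0.146 in NPC-ΔZF1 (SD, n = 2), with a log2 fold change of 0.04 (95% interval -0.26 to 0.33). Stk31 had 0.02 (-0.29 to 0.32), Mael 0.26 (-0.07 to 0.58), Sycp1 0.39 (-0.07 to 0.84), Slc25a31 0.37 (-0.13 to 0.87), Asz1 -0.28 (-1.94 to 1.37) and Tex101 -1.06 (-1.94 to -0.17), and none of them was called.

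Markers of other cell types moved in the same libraries. All 8 primitive endoderm markers were higher in NPC-ΔZF1 than in NPC-WT, with the sums given above, as were all 9 genes tested of a list of 10 that mark cells like the two-cell embryo, whose sums were 4.96 to 6.45 CPM in NPC-WT and 23.0 to 23.5 in NPC-ΔZF1. Several of the latter, such as the Zscan4 genes, are near-identical copies whose reads can be split between them. The 8 primordial germ cell markers had sums of 217 to 221 CPM in NPC-WT and 202 to 209 in NPC-ΔZF1, with 2 lower and 2 higher. The 2 lower ones were Dppa3 (-0.92) and Tfap2c (-0.67), and the 2 higher ones were Prdm1 (1.14) and Sox17 (3.16), which endoderm also expresses. Sox17 is in both the germ cell and the primitive endoderm list, so that these lists are not separate, and its level went from 4.38 and 5.93 CPM in NPC-WT to 46.3 and 48.1 in NPC-ΔZF1. Among the other germ cell genes of the list, Nanos3 and Prdm14 stood at 0.384 ± 0.0641 and 0.986 ± 0.915 CPM in NPC-WT. In NPC-ΔZF1 they stood at 0.378 ± 0.0140 and 0.343 ± 0.0867 CPM (SD, n = 2). Kit stood at 27.3 ± 4.19 CPM in NPC-WT and 33.6 ± 2.29 in NPC-ΔZF1 (SD, n = 2). None of these genes was called, nor was Dnd1. The 8 ESC markers had sums of 588 to 777 CPM in NPC-WT and 668 to 685 in NPC-ΔZF1, and 1 of them was called, Klf2, which was lower (-1.16). The NPC markers had sums of 106 to 146 CPM in NPC-WT and of about 112 in NPC-ΔZF1. Of the 6 tested, 3 were higher, namely Sox1 (1.05), Olig3 (1.91) and Zic1 (1.53), and 1 was lower, Nes (-0.85). The part of these cell types in the rise of Dazl, Tex13b and Sycp3 was not tested. The counts of the germline and methylation lists stand against the 10.5% of all genes lower and 7.19% higher in NPC-ΔZF1. Of the 22 further piRNA pathway genes 2 were lower and 1 higher in NPC-ΔZF1. Tex19.1 and Tdrkh were the lower ones (-1.52 and -0.77) and Piwil4 the higher (0.98), all 3 named after their values were seen. Of the 22 meiosis genes 4 were lower, namely Rec8 (-1.28), Stra8 (-0.76), Tex11 (-0.54) and Tex14 (-0.52), and 1 was higher, Hormad1 (1.33). Of the 14 other germline genes tested 3 were lower, namely Rhox6 (-1.47), Rhox9 (-2.03) and Dppa3 (-0.92), and 2 were higher, Rhox5 (1.21) and Aurkc (0.96). These genes were also named after their values were seen. Of the 10 DNA methylation genes 3 were called, all higher, namely Dnmt3l (0.51), Hells (0.60) and Tet1 (0.62), also named after their values were seen. The 22 repressors had a median of 0.16.

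The change from ESC to NPC was then compared between the WT and ΔZF1 CTCF lines as the interaction of the fit, which differed in 2.7% of all genes. It differed in 2 of the 10 members, both with a higher value in the ΔZF1 line. For Dazl the difference was 2.04 on the log2 scale (standard error 0.26, adjusted p = 0.00486), the difference between -1.89 and -3.93. For Mael it was 1.15 (standard error 0.24, adjusted p = 0.0329), as Mael fell from 21.0 to 9.57 CPM in the WT CTCF line and stood at 11.3 and 11.6 ± 0.0573 CPM (SD, n = 2) in ESC-ΔZF1 and NPC-ΔZF1. The call of Mael was lost without any 1 library of ESC-WT, ESC-ΔZF1 or NPC-ΔZF1 (values of 1.03 to 1.23, adjusted p of 0.12 to 0.201). The other 8 members had positive values that were not called, from 0.22 in Tex101 to 1.61 in Slc25a31 (95% interval 0.88 to 2.34, adjusted p = 0.0541). The interaction uses the same libraries as the 2 comparisons above and adds no further evidence for them. Of the 8 primitive endoderm markers 7 were called higher in it.

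**Figure D4:**
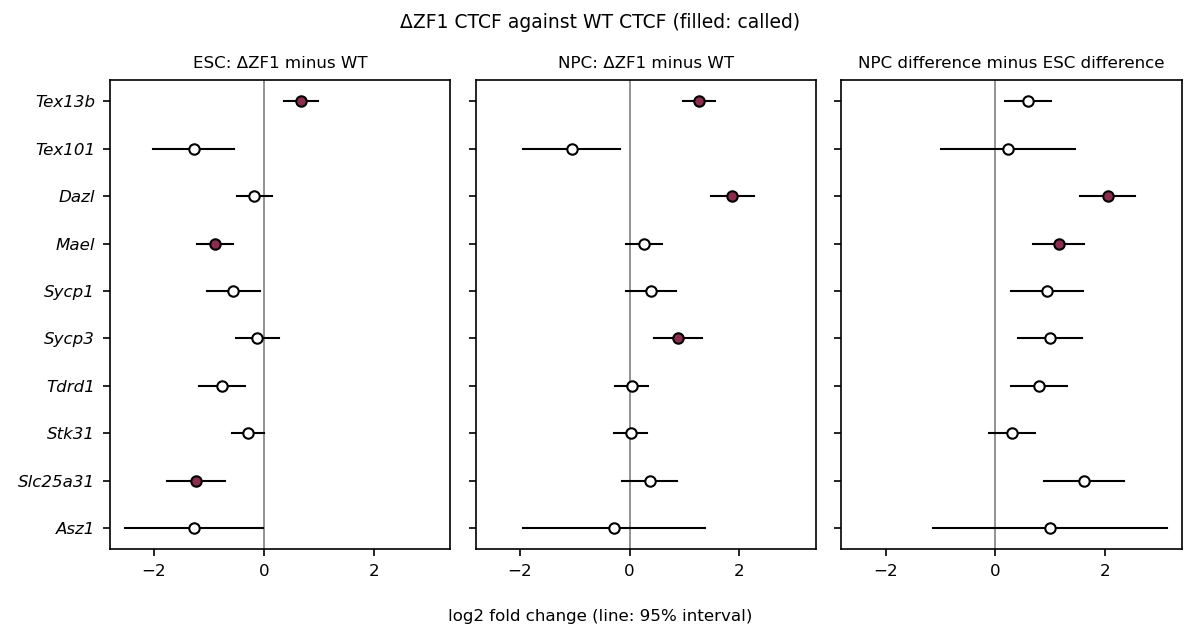
Log2 fold change of each germline gene in ΔZF1 minus WT CTCF in ESCs and in NPCs, and the difference between these differences (right). Lines are approximate 95% intervals and filled points are calls. In ESCs Mael and Slc25a31 lie below 0 and Tex13b above, in NPCs Dazl, Tex13b and Sycp3 lie above 0, and in the right panel Dazl lies at 2.04 and Mael at 1.15.

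The third question was whether truncation of the Podxl RNA changed these genes. In ESCs, 0 of the 9 members tested were called in Podxl pA relative to WT by edgeR and 0 by DESeq2, against 0.256% of all genes lower and 0.0829% higher. Tex13b had an unadjusted p-value under 0.05, with 25, 29 and 18 reads in ESC WT and 35, 76 and 14 in ESC Podxl pA and a log2 fold change of 0.79 (95% interval 0.31 to 1.27, adjusted p = 0.229). In NPCs Tex13b was called higher, with 11, 42 and 28 reads in NPC WT and 56, 70 and 100 in NPC Podxl pA. Its level was 6.47 ± 2.94 CPM in WT and 14.7 ± 1.78 in Podxl pA (SD, n = 3), each Podxl pA library above each WT library (20.7% of all genes tested did not overlap), and the log2 fold change was 1.20 (standard error 0.22, adjusted p = 0.00349). It was thus 1 member of 9, where 0.384% of all genes were higher and 0.166% lower. The WT libraries are also the control of Grb10 pA, on which Tex13b was chosen. Low WT values raise both contrasts, so that the choice favoured the comparison of Tex13b here. Its p-values and its place in the share of members are therefore not independent of the choice. Dazl had 32, 71 and 41 reads in NPC WT and 73, 106 and 123 in NPC Podxl pA, with every Podxl pA library higher in CPM, but it was not called (0.78, 95% interval 0.38 to 1.19, adjusted p = 0.088). Mael had 0.58 (0.15 to 1.01, adjusted p = 0.316), and the other 6 members lay between -0.20 in Tdrd1 and 0.49 in Slc25a31 and were not called. The difference between the lines in the change from ESC to NPC was called in 0 of the 9 members by edgeR and by DESeq2, with 0 at an unadjusted p-value under 0.05, and in 0.098% of all genes. In NPC Podxl pA 4 of the 8 primitive endoderm markers were higher than in NPC WT, with sums of 1069 to 1144 CPM against 604 to 703. The markers of cells like the two-cell embryo had sums of 18.1 to 18.5 against 6.80 to 9.10 CPM, with 1 of 3 tested called higher, Zscan4d (1.84). The NPC markers had sums of 104 to 108 against 130 to 145 CPM, with 1 of 5 tested called lower, Sox1 (-0.63), both genes named after their values were seen. The part of these markers in the rise of Tex13b was not tested.

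In the Grb10 pA line, on which it was chosen, Tex13b had 174, 100 and 170 reads in ESCs against 25, 29 and 18 in ESC WT. In NPCs it had 514, 224 and 329 reads against 11, 42 and 28. Its level was 37.5 ± 2.88 CPM in ESC Grb10 pA and 56.6 ± 1.06 in NPC Grb10 pA, against 5.80 ± 1.06 and 6.47 ± 2.94 in WT (SD, n = 3), so that all 6 Grb10 pA libraries lay above all other libraries of the experiment. The log2 fold changes were 2.75 in ESCs and 3.13 in NPCs. Among all 13268 genes tested they ranked 14th and 5th from the top, behind B3galt1 (4.07) in ESCs and Crxos (4.85) in NPCs, so that the rise of Tex13b is the largest of the members and not of all genes. In order of level, the groups of this experiment ran from ESC WT and NPC WT, whose libraries overlapped, through ESC Podxl pA at 9.06 ± 2.48 CPM and NPC Podxl pA at 14.7 ± 1.78 to ESC Grb10 pA and NPC Grb10 pA. The ESC Podxl pA libraries, at 7.21 to 11.9 CPM, overlapped those of NPC WT, at 3.56 to 9.44. In the rescue lines, NPC-WT (7.58 CPM) and ESC-WT (9.38 ± 0.942) stood below ESC-ΔZF1 (15.1 ± 1.10) and NPC-ΔZF1 (18.1).

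The other members in Grb10 pA are given for the same contrast, without a test. In NPCs, the log2 fold change relative to WT was 1.44 for Asz1, 1.22 for Mael, 1.07 for Dazl, 1.00 for Slc25a31, 0.50 for Stk31, 0.49 for Sycp1 and 0.31 for Sycp3. Asz1 passed the filter mainly through the Grb10 pA libraries of ESCs and NPCs, so that its values in both were favoured. Asz1 had 33, 14 and 23 reads in NPC Grb10 pA and 3, 8 and 6 in NPC WT, Mael had 200, 128 and 138 against 36, 67 and 34, and Dazl had 216, 103 and 134 against 32, 71 and 41. Their Grb10 pA libraries lay above all WT libraries in CPM. The libraries did not overlap in 7 of the 9 members tested, 6 of them higher with Tex13b and Asz1 among these, and in 43.6% of all genes tested. Tdrd1 ran the other way, with 55, 18 and 13 reads against 38, 47 and 29 and a log2 fold change of -1.06. In ESCs Asz1 had 0.85, Dazl 0.83, Stk31 0.68 and Tdrd1 -0.83, and the remaining 4 members lay between -0.03 and 0.32. Of all genes, 4.51% were higher and 4.58% lower in ESC Grb10 pA, and 7.9% and 8.64% in NPC Grb10 pA, and nothing is read from these shares about the members. The summed level of the NPC markers was 52.9 to 64.6 CPM in NPC Grb10 pA and 130 to 145 in NPC WT, with Sox1 at 25.6 ± 4.30 against 79.3 ± 4.87 CPM (SD, n = 3). The ESC markers were at 828 to 887 against 685 to 795 CPM and the primitive endoderm markers at 436 to 542 against 604 to 703. The 10 DNA methylation genes had a median log2 fold change of 0.03 in NPCs and -0.12 in ESCs, none of them beyond 1 in size, and the 22 repressors had medians of -0.01 and 0.01. Within the methylation list, Dnmt3l stood higher in NPC Grb10 pA than in NPC WT (594 ± 14.4 against 301 ± 25.8 CPM; SD, n = 3), as did Tet1 (479 ± 61.6 against 331 ± 42.5), whereas Dnmt3b stood lower (304 ± 8.25 against 371 ± 7.24). The part of any of these in the levels of the germline genes was not tested.

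**Figure D5:**
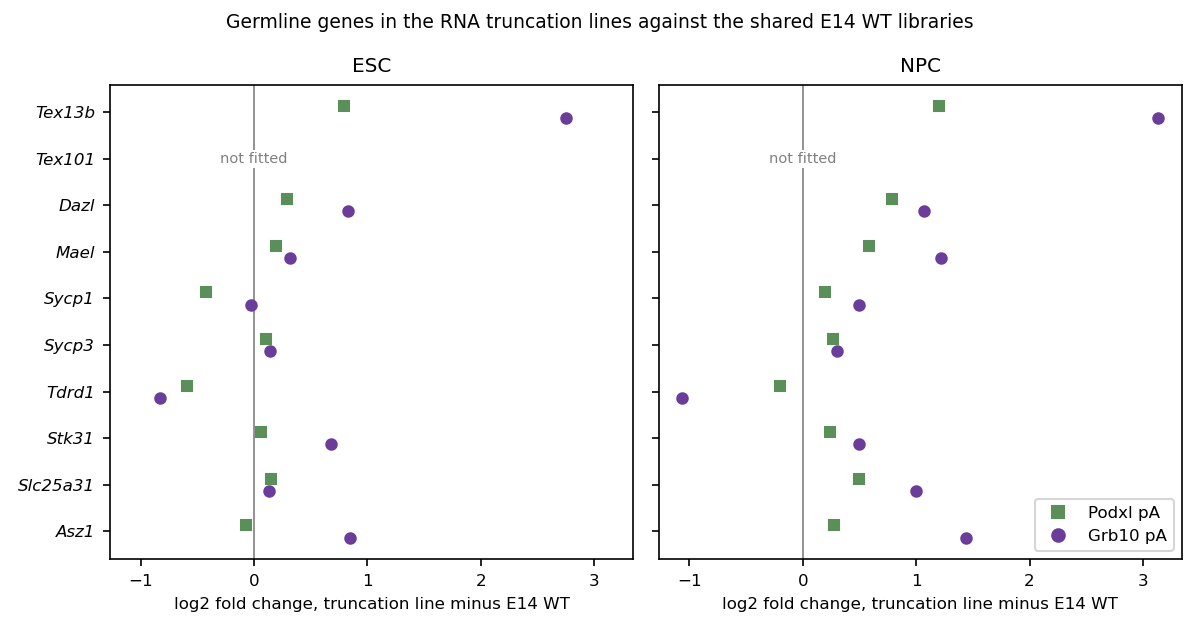
Log2 fold change of each germline gene in Podxl pA (squares) and Grb10 pA (circles) minus WT, in ESCs (left) and NPCs (right), with both lines set against the same WT libraries and Tex101 not fitted. Tex13b stands at 0.79 and 2.75 in ESCs and at 1.20 and 3.13 in NPCs. Tdrd1 lies below 0 in all 4 contrasts, but was not called in Podxl pA and was not tested in Grb10 pA.

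The genes around Tex13b were at other values. Of the 5 genes tested within 500 kb of it on chromosome X, the log2 fold changes in Grb10 pA were lowest for Atg4a (-0.24 in ESCs, -0.29 in NPCs) and highest for Mid2 (0.53 in ESCs, 0.45 in NPCs). The median of the 473 genes tested on chromosome X was -0.05 in ESCs and 0.02 in NPCs. The 5 genes whose log2 CPM ran most closely with that of Tex13b over the 18 libraries of the truncation experiment were Slc2a3, a glucose transporter (Pearson's r = 0.96), Mgat3 (0.92), Scml2, an X-linked Polycomb gene of the male germline (0.91), Kdm7a (0.88) and Bnip3 (0.88). The 18 libraries are 6 groups of 3 and share their lines, so that these are descriptions. They include Grb10 pA, where Tex13b stood highest. Rises of these 5 genes in Grb10 pA were therefore favoured by the choice and support nothing. In Grb10 pA relative to WT these genes had log2 fold changes of 0.77 and 1.04 for Slc2a3 in ESCs and NPCs, 0.56 and 0.70 for Mgat3, 1.77 and 1.93 for Scml2, 0.56 and 0.82 for Kdm7a and 0.92 and 1.31 for Bnip3, each smaller than that of Tex13b.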

How the data were processed

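RNA was sequenced from 26 libraries, 8 of the rescue lines and 18 of the truncation lines. Reads were mapped by the authors to mm10 (STAR, default parameters) and assigned to genes by featureCounts, ignoring strand. The version of STAR is not given in the sources used here, and neither is the gene annotation. The deposited values are raw counts per gene symbol, and 3 columns that match no sample were not used. Groups were taken from the labels.

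edgeR 4.0.16 (R 4.3.3) was run on each table by itself, after its own low-count filter and TMM scaling, with 1 coefficient per group and no block. CPM were taken over the counts on tested genes. Groups were compared with the quasi-likelihood test, adjusted by Benjamini-Hochberg over all genes tested. Calls required an adjusted p-value no higher than 0.05 and an absolute log2 fold change no lower than 0.5. Standard errors were derived from the log2 fold change and its F statistic. The fit was tested on simulated counts.

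The members and gene lists were chosen with earlier results of these data known. The genes named by rule are all members, up to 4 genes per list, and the 5 genes most like Tex13b. The list genes had the lowest adjusted p in NPC-WT relative to ESC-WT among those called the same way in E14 WT. Other list genes, markers, neighbours and top-ranked genes were named outside this rule, many after their values were seen. Alternatives were RLE normalization, 2 other filters, only the libraries compared, a replicate block, DESeq2 1.42.0, an adjusted p-value of 0.01 and each library left out in turn. Drawings were made with matplotlib 3.10.9.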

Additional observations from a re-analysis of the deposited data

Results flagged for a closer look

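The change from ESC to NPC differed between the ΔZF1 and WT CTCF lines, by a test of the difference itself, in Dazl (2.04 on the log2 scale, adjusted p = 0.00486, quasi-likelihood test of edgeR) and in Mael (1.15, adjusted p = 0.0329). Dazl remained called without any 1 library, with values between 1.82 and 2.22, whereas Mael did not.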

How the results depend on the processing

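No called log2 fold change turned direction under any alternative. Of 264 values of called members under alternatives other than left-out libraries, 247 kept their call and 17 lost it, and of 192 values with 1 library left out, 157 kept it and 35 lost it. With 1 library left out of a pair, the lone library was assumed to vary like the other groups. The cause of the changes below was not tested, beyond fewer libraries or a stricter threshold where these are named. The count of members called between NPC and ESC Podxl pA was 5, fell to 3 at an adjusted p-value of 0.01, and ran from 3 to 5 with a library left out. In ESC-ΔZF1 relative to ESC-WT the count of 3 became 0 at 0.01, 5 with only these 4 libraries in the fit, and 0 with each library left out. In NPC Podxl pA relative to WT it went from 1 to 2 without a filter and to 2 with only the libraries compared. In the interaction of ΔZF1 it went from 2 to 1 at 0.01, and ran from 1 to 6 with a library left out, with 6 without replicate 1 and 4 without replicate 2 of NPC-WT. The deviations of libraries with the same replicate number correlated between -0.0896 and 0.132. With so few libraries a group, this cannot tell whether such libraries share a culture. With the replicate block the interaction gave 1 member, as Mael was lost (adjusted p = 0.0613), and ESC-ΔZF1 gave 2, as Tex13b was lost (adjusted p = 0.0646). Counts of a few reads limit Asz1, Tex101 and, in the ESCs of the truncation lines, Tdrd1.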
